A study of Populus trichocarpa with 24 samples.

Results

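The loci described here are those of Populus trichocarpa (black cottonwood) whose transcripts were high in both differentiating xylem and phloem of the stem and low in leaf, shoot tip and primary root. A locus was a member if the lower of its xylem and phloem means was at least 10 CPM (the count over the library total, scaled to 1000000 counts) and at least 6 times the highest of its leaf, shoot tip and root means. Of the 41335 loci in the deposited table, 22 met this rule. The members were thus chosen by their tissue values, which are given as a description and without a test. The rule used no values of the captured wood cells, which carry the tests. The members were, however, chosen with earlier results of these data known.

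The table held RNA sequencing counts for 24 libraries in 8 groups of 3. Leaf (fully expanded young leaves), shoot tip (the uppermost internodes), phloem (scraped from the inner bark) and xylem (scraped from debarked stems) came from greenhouse trees grown for 6 months. Primary roots came from seedlings rooted in water, although their label also gives an age of 6 months. The other 3 groups were cut from 6-month-old trees by laser microdissection and held xylem fiber cells, xylem vessel cells, or fiber, vessel and ray cells combined (the mix). No group carried a treatment or a transgene, and the labels do not tie libraries to trees, so p-values reflect the spread among the libraries, which may be technical. Only the captured RNA was amplified before library preparation, so amplification and capture cannot be told apart in any comparison of captures with tissues.

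Wood and inner bark arise from the same layer of dividing cells, the vascular cambium, which gives xylem toward the inside of the stem and phloem toward the outside. Xylem holds water-conducting vessels, supporting fibers and living ray cells, and phloem holds sugar-conducting sieve elements with companion cells, parenchyma and often fibers of its own. Vessels and fibers build thick lignified walls and then die, vessels usually sooner than fibers. Ray cells cross the cambium from wood to bark and stay alive longer.

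Library totals ran from 5689642 to 30917688 counts in the tissues and from 8317935 to 18040299 in the captures. A level of 1 CPM stood for 8.32 to 18.0 counts in a capture library. The files and the reference table do not pair the locus identifiers with gene names (0 of 41335 matched), so identifiers stand alone, no function is given for any of them, and the labelled tissues and cells could not be checked against marker genes. No locus lengths were at hand either, so levels are compared between groups for 1 locus at a time and loci are not ranked against each other by level. Where groups differ, fewer cells of a type and less RNA per cell cannot be told apart in pooled samples like these.

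Across the 22 loci the xylem means ran from 11.0 to 477.0 CPM, with a median of 68.1, and the phloem means from 16.9 to 534.8 CPM, with a median of 49.7. Medians for the tissues that the rule required to be low were 1.42 CPM in leaf, 5.66 in shoot tip and 3.49 in root. The lower stem mean was between 6.38 and 182.9 times the highest other tissue, with a median of 7.93, so most members lie close to the threshold. The highest of the other tissues was shoot tip for 14 loci, root for 6 and leaf for 2. In all 22 loci each of the 6 stem libraries lay above each of the 9 libraries of leaf, shoot tip and root, which the rule on means did not require but made likely.

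**Figure D1:**
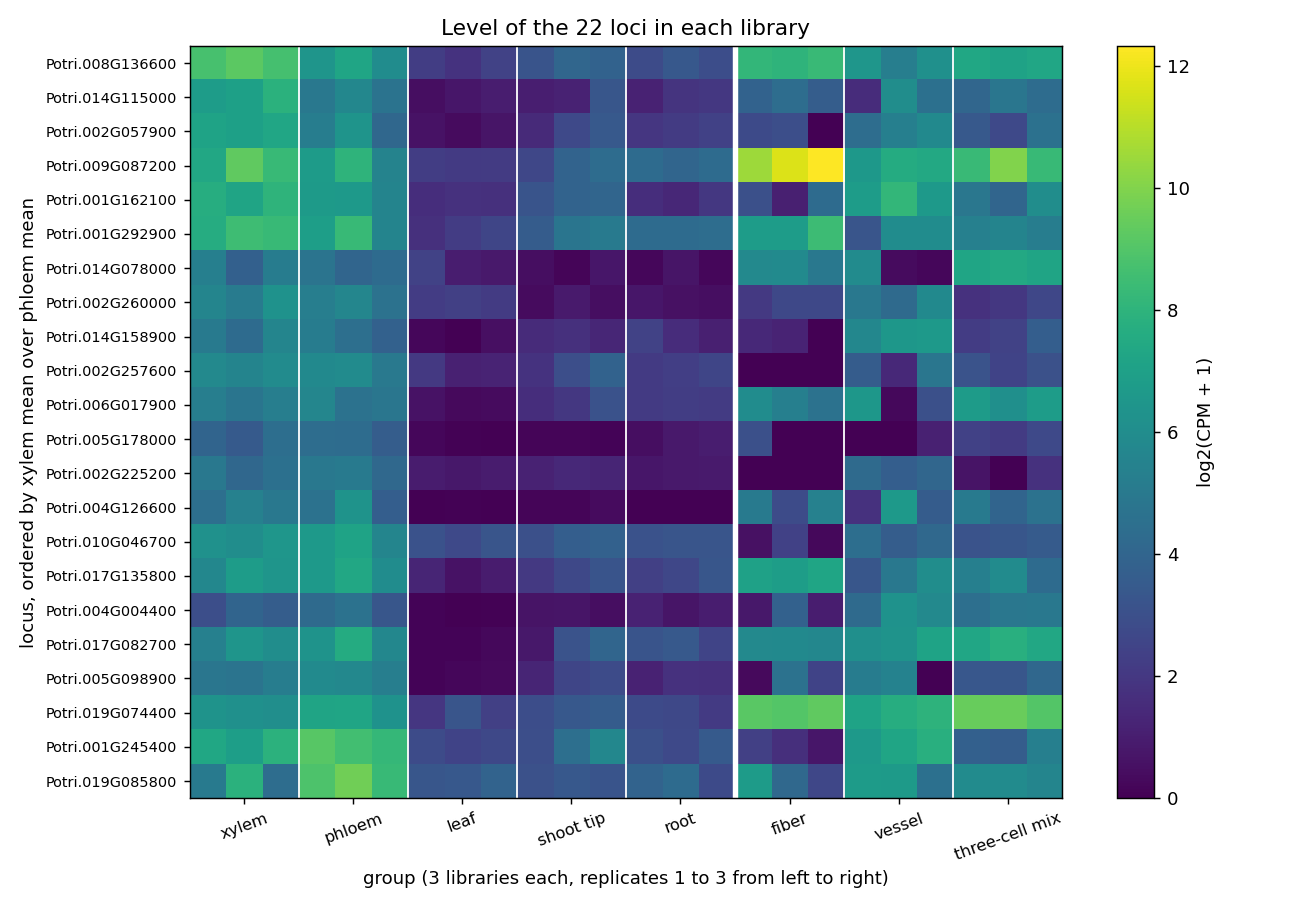
Levels of the 22 loci (rows, ordered from the highest to the lowest ratio of xylem to phloem) in each of 24 libraries (columns, 3 per group), as log2(CPM + 1) in colour, with the 5 tissues left of the thick line and the 3 captures right of it. The bright stem columns and dark leaf, shoot tip and root columns follow from the rule; the captures differ from row to row, from 0 CPM in fiber for Potri.002G225200 to 3295 CPM in fiber for Potri.009G087200.

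The threshold separated values that differ little. Just inside the fold of 6 were Potri.002G257600 at a ratio of 6.38 and Potri.001G245400 at 6.64, and just outside were Potri.006G056100 at 5.91 and Potri.004G186900 at 5.82. Around the floor of 10 CPM, Potri.004G004400 was inside with a lower stem mean of 11.0 CPM, and Potri.002G250100, which met the fold, was outside at 9.09 CPM.

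Membership depended on single libraries, most of all of phloem and shoot tip. Phloem replicate 3 held the lowest phloem value for 20 of the 22 loci, and its counts differed from those of phloem replicates 1 and 2 by a chi-square per degree of freedom of 202 and 225, against 35.6 between those replicates. Shoot tip replicate 3 held the highest shoot tip value for 15 loci and replicate 1 the lowest for 17. Without phloem replicate 3 the rule gave 27 loci, and without shoot tip replicate 3 it gave 28, in each case with all 22 members among them. Without phloem replicate 2 it gave 18 loci, 17 of them members, and without shoot tip replicate 1 it gave 16, of which 15 were members. Leaving out any single library of xylem, leaf or root gave 21 or 22 loci, of which 20 were members without xylem replicate 2. With replicate 3 of every tissue left out there were 39 loci.

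The rule was also applied to 2 replicate numbers and read in the libraries of the remaining number. Chosen without replicate 1, 12 of 18 loci met the same floor and fold in replicate 1 alone, with a median ratio there of 9.97. Chosen without replicate 2, 12 of 18 met them, with a median of 8.08. Chosen without replicate 3, 9 of 39 met them, with a median of 2.68. These sets of loci differ in size and content, so the shares do not rank the replicate numbers.

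The members divided into 15 with xylem and phloem means within 2-fold of each other, 5 with at least 2 times as much in xylem and 2 with at least 2 times as much in phloem. The strongest lean toward xylem was that of Potri.008G136600, with 428.6, 589.3 and 413.1 CPM in the xylem libraries and 86.0, 148.9 and 62.1 CPM in phloem, a ratio of means of 4.82. All of its xylem libraries lay above all of its phloem libraries. The strongest lean toward phloem was that of Potri.019G085800, with 468.0, 815.0 and 321.2 CPM in phloem and 32.9, 235.1 and 20.4 CPM in xylem, a ratio of 5.56. Its groups did not overlap either, but xylem replicate 2 stood far above the other xylem libraries, and the lower stem mean of 96.2 ± 120.5 CPM (SD, n = 3) that made it a member rests mainly on that library.

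The other loci leaning toward xylem were Potri.014G115000 (ratio of means 4.44), Potri.002G057900 (3.14), Potri.009G087200 (2.70) and Potri.001G162100 (2.43). Of these only Potri.009G087200 had overlapping groups, with 166.1, 642.5 and 311.4 CPM in xylem and 107.8, 262.7 and 44.3 CPM in phloem. The remaining locus leaning toward phloem, Potri.001G245400, had 554.6, 387.7 and 299.8 CPM in phloem and 161.9, 118.7 and 243.7 CPM in xylem, again without overlap. Among the 15 even loci, Potri.005G098900 alone had groups that did not overlap, with phloem above xylem at a ratio of 1.68. In all, 4 of 22 members had every xylem library above every phloem library and 3 the reverse. Among the 11377 loci with at least 10 CPM in both tissues these shares were 29.5% and 17.9%, and since the rule used these values nothing is read from the difference.

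**Figure D2:**
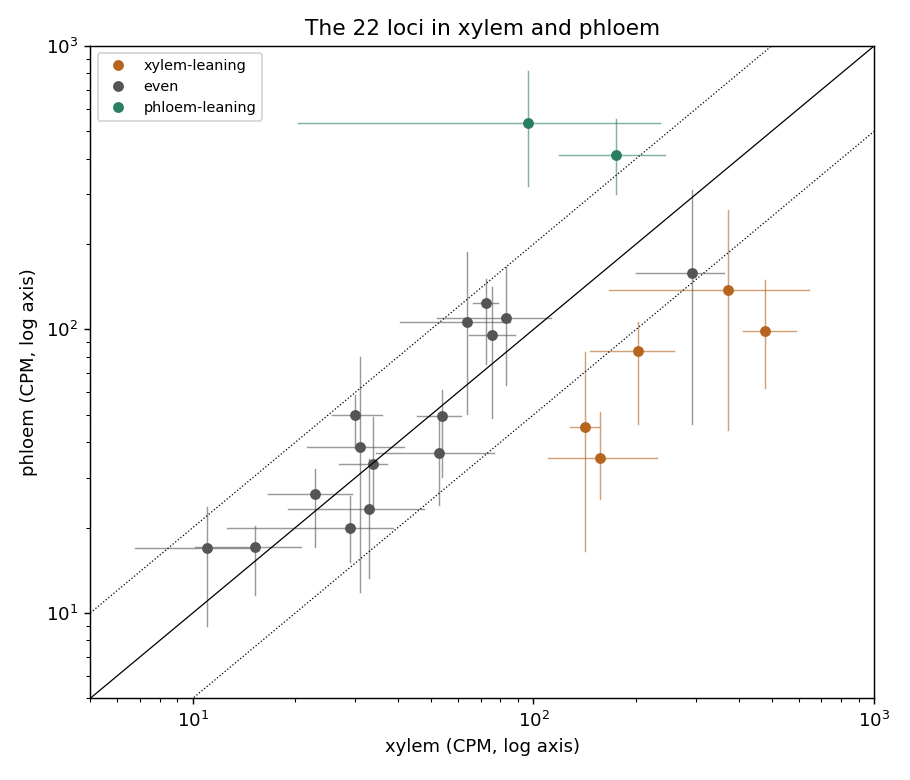
Mean level of each of the 22 loci in xylem (horizontal) and phloem (vertical), in CPM on log axes, with lines from the lowest to the highest of the 3 libraries; the solid diagonal marks equal means and the dotted lines a 2-fold difference. The 15 even loci lie between the dotted lines, 5 lie toward xylem and 2 toward phloem.

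A few even members show what sharing between xylem and phloem looked like. Potri.004G126600 had the largest ratio to the other tissues, with 21.7, 41.7 and 29.2 CPM in xylem and 23.8, 79.9 and 11.8 CPM in phloem. It had no count in the root libraries, 0.112, 0.106 and 0.287 CPM in shoot tip, and a value above 0 in 1 of 3 leaf libraries, at 0.0647 CPM. Potri.005G178000 followed at a ratio of 21.4, with 14.6, 10.2 and 20.8 CPM in xylem, 20.2, 19.3 and 11.6 CPM in phloem and at most 0.967 CPM in any library of the other tissues. For both loci the xylem and phloem values overlapped fully and the other tissues were near 0.

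The even locus Potri.001G292900 had 200.6, 363.3 and 313.2 CPM in xylem and 118.3, 310.8 and 46.5 CPM in phloem, against 11.0, 26.3 and 32.6 CPM in shoot tip. Phloem replicate 2 reached the xylem range for this locus and replicate 3 did not. The remaining even loci had ratios of xylem to phloem between 0.58 and 1.44. They were Potri.017G135800, Potri.010G046700, Potri.019G074400, Potri.017G082700, Potri.002G257600, Potri.002G260000, Potri.006G017900, Potri.014G158900, Potri.002G225200, Potri.014G078000 and Potri.004G004400. Their xylem means ran from 11.0 CPM for Potri.004G004400 to 82.9 CPM for Potri.017G135800.

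Replicates of a tissue spread moderately for these loci. The median coefficient of variation was 34.0% in xylem, 42.2% in phloem, 44.5% in leaf, 52.1% in shoot tip and 31.1% in root. Among captures it was 70.8% for fiber, 60.5% for vessel and 28.5% for the mix. The identifiers of the 22 loci carry 11 different chromosome numbers (in Populus locus names, the digits before the G), with at most 4 loci on 1 chromosome. No pair of members had identifiers within 500 of each other on the same chromosome, so none of them are close neighbours by number. Reads shared with near-identical copies elsewhere could not be checked.

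All 22 loci passed the filter on low counts in the 9 captures, and most were present in the captured wood cells. With a group mean of at least 1 CPM taken as detected, fiber held 20 of the 22, vessel 21 and the mix 21, and 19 were detected in all 3. All loci with at least 10 CPM in both stem tissues were detected at similar shares, 96.0% for fiber, 97.5% for vessel and 98.9% for the mix. Of the 407 loci that met the same floor and fold in xylem alone, 94.6% were detected in fiber and 92.6% in vessel, and of the 169 loci of phloem alone 27.2% and 55.0%. No test was made of these shares, since loci of one library are not independent.

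Captured fiber and vessel cells were compared to place the shared loci within wood. Of the 22 loci 3 were higher in fiber and 4 were higher in vessel by edgeR's quasi-likelihood test (Benjamini-Hochberg adjusted p below 0.05 together with a log2 fold of 1 or more either way). Among all 22828 tested loci 6.05% were called, 2.86% as higher in fiber and 3.19% as lower, and among the 11279 tested loci with at least 10 CPM in both stem tissues 2.79% and 4.48%. The members' counts correspond to 13.6% and 18.2%, from few loci. Among tested loci of xylem alone 31.5% were called higher in fiber and 2.0% lower. Among those of phloem alone the shares were 0.0% and 5.97%. The median log2 fold of fiber against vessel was -0.82 over the members, and -1.75 without fiber replicate 1. Loci with no count in fiber had the lowest folds, also at their bounds, so setting them there could not move the median. The median was 0.006 over the tested loci with at least 10 CPM in both stem tissues and 1.88 over those of xylem alone. It was -0.84 over those of phloem alone, of which only 67 of 169 passed the filter. Such loci could pass through the vessel libraries alone, and 55.0% of the 169 were detected in vessel against 27.2% in fiber. The filter can thus turn their shares and median toward vessel, and nothing is read from their direction. The highest capture mean was in vessel for 13 members, in the mix for 5 and in fiber for 4. The same counts were not made over all loci, so no preference is read from them.

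Potri.009G087200 had the largest fold toward fiber, with 1448, 3288 and 5148 CPM in the fiber libraries, 94.3, 189.0 and 172.6 CPM in vessel and 329.3, 1005 and 319.6 CPM in the mix. The 3 groups did not overlap, fiber being highest and vessel lowest. Its log2 fold of fiber against vessel was 4.51 ± 0.61 (SE), with an edgeR adjusted p of 0.0035, and it held 69.2% of the members' summed CPM in fiber. Its fiber mean of 3295 ± 1850 CPM (SD, n = 3) stood beside 373.3 CPM in xylem tissue, its mix mean beside that at 551.4 CPM.

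Potri.008G136600 had 282.6, 259.3 and 326.6 CPM in fiber, 88.0, 37.2 and 73.0 CPM in vessel and 163.9, 134.8 and 156.9 CPM in the mix. The mix again lay between fiber and vessel with no overlap. The log2 fold was 2.22 ± 0.37 (SE), with an edgeR adjusted p of 0.0082. Potri.019G074400 had 580.3, 519.5 and 644.4 CPM in fiber against 140.2, 205.0 and 254.1 CPM in vessel, a log2 fold of 1.64 ± 0.31 with an edgeR adjusted p of 0.013. Its mix values of 703.8, 733.1 and 523.1 CPM overlapped those of fiber and lay above vessel, and all captures lay above its xylem tissue values of 66.5 to 78.6 CPM.

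In the opposite direction, Potri.014G158900 had 1.68, 1.36 and 0 CPM in fiber and 51.1, 89.8 and 96.6 CPM in vessel. Vessel also lay above the mix, at 3.60, 4.44 and 11.8 CPM. The log2 fold of fiber against vessel was -6.16 ± 1.32 (SE) with an edgeR adjusted p of 0.021. Potri.001G245400, which leaned toward phloem in the tissues, had 3.97, 2.19 and 0.671 CPM in fiber, 96.3, 150.1 and 217.4 CPM in vessel and 12.9, 11.5 and 38.4 CPM in the mix. No capture groups overlapped for this locus, and its log2 fold was -5.96 ± 0.86 with an edgeR adjusted p of 0.0044.

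Potri.001G162100, which leaned toward xylem, had 6.97, 1.15 and 18.6 CPM in fiber and 110.7, 281.1 and 102.2 CPM in vessel, a log2 fold of -4.11 ± 0.95 (SE) with an edgeR adjusted p of 0.029. This call was lost without fiber replicate 1 or 2, vessel replicate 2 or mix replicate 1. Potri.002G257600 had no count in any fiber library, which allows up to 0.106 CPM for 3 counts over the group, and 10.9, 1.70 and 28.1 CPM in vessel. It was at least 128-fold lower in fiber than in vessel, a bound that vessel replicate 3 carries and that falls to 59.6 without it. Without fiber replicate 2 or 3 the bound is 84.7 or 80.9. The comparison had an edgeR adjusted p of 0.040 that exceeded 0.05 when any 1 of the fiber or mix libraries, or vessel replicate 3, was left out. For Potri.014G158900 the call was lost without fiber replicate 1 or 2. In those refits 2.45% and 3.0% of all tested loci were called, against 6.05% in the fit of all captures.

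A further 8 loci had fiber and vessel libraries that did not overlap without being called. Vessel was above fiber for Potri.002G225200, Potri.002G057900, Potri.002G260000, Potri.004G004400, Potri.010G046700 and Potri.017G082700, and fiber above vessel for Potri.001G292900 and Potri.017G135800. Potri.002G225200 had no count in fiber and 18.0, 11.8 and 15.7 CPM in vessel, so that it was at least 143-fold lower in fiber (94.7 without fiber replicate 2 and 90.5 without replicate 3), with an edgeR adjusted p of 0.066. Its mix values were 0.568, 0 and 2.38 CPM, below every vessel library. In all, the fiber libraries of 5 members lay wholly above those of vessel and those of 10 wholly below, where 12.2% and 11.1% of all tested loci did so.

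**Figure D3:**
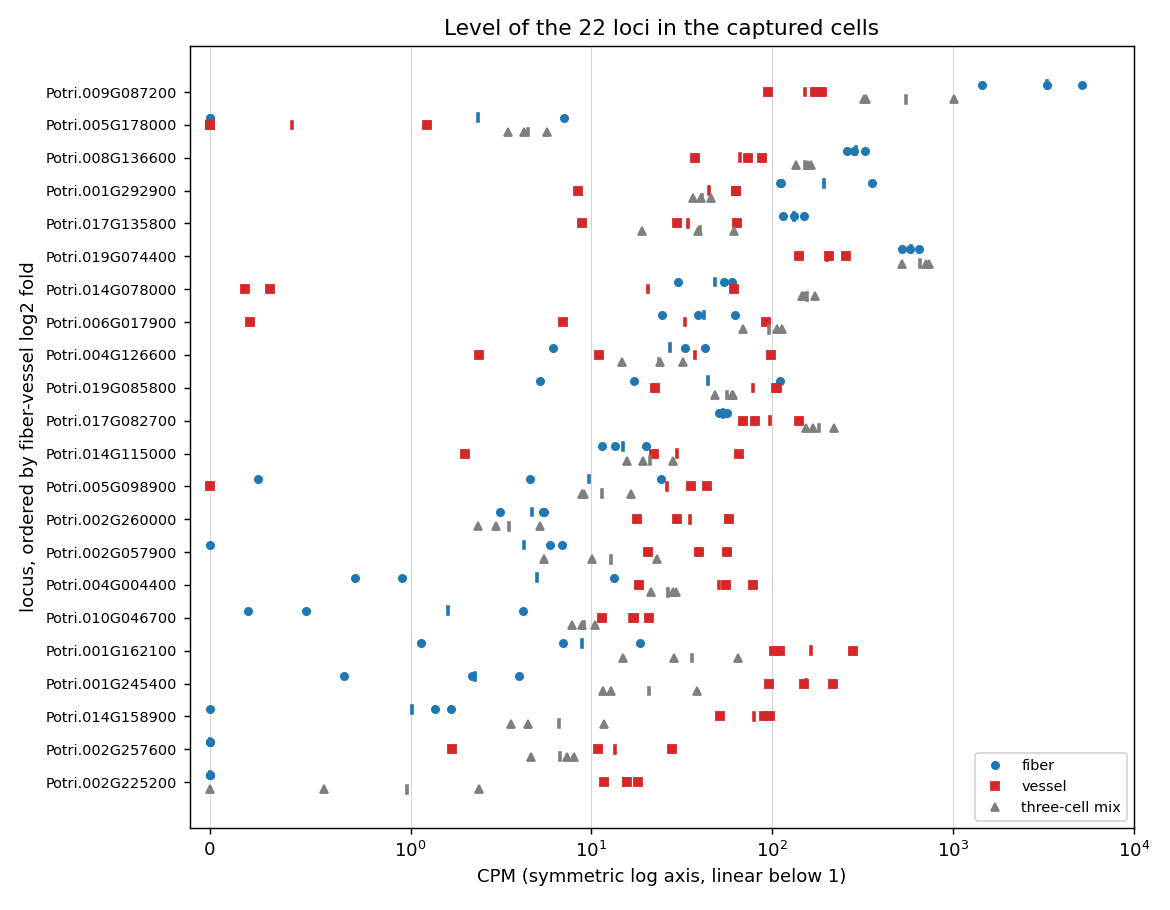
Levels of the 22 loci in the captured cells in CPM (symmetric log axis, linear below 1), with 3 libraries per group as points and the mean as a short bar; loci are ordered by the fitted log2 fold of fiber against vessel. Loci at the bottom, from Potri.002G260000 downward, have vessel points to the right of all fiber points, and Potri.009G087200 at the top has fiber points between 1448 and 5148 CPM.

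Several loci whose fiber and vessel libraries overlapped differed strongly among vessel libraries. A wide spread in itself makes overlap more likely. Loci without overlap could spread widely in vessel too, such as Potri.002G257600 at 10.9, 1.70 and 28.1 CPM. Potri.014G078000 had 61.1, 0.300 and 0.175 CPM in the vessel libraries, and Potri.006G017900 had 92.0, 0.200 and 6.93 CPM. Both were thus carried by vessel replicate 1, and both had higher means in the mix, at 156.5 ± 14.2 and 96.2 ± 24.1 CPM (SD, n = 3), than in fiber or in xylem tissue. Without vessel replicate 1, Potri.014G078000 was called higher in fiber than in vessel, and lower in vessel than in the mix. In that refit 8.48% and 1.1% of all tested loci were called in these comparisons. Potri.004G126600 instead had its high value in vessel replicate 2, with 2.38, 98.4 and 11.0 CPM. Potri.005G098900 had 35.7, 43.3 and 0 CPM in vessel and 0.240, 24.2 and 4.60 CPM in fiber. Potri.014G115000 had 1.999, 65.5 and 22.1 CPM in vessel around a narrower fiber range of 11.4 to 19.9 CPM.

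Among the rest, Potri.019G085800 spread widely in fiber (109.6, 17.1 and 5.18 CPM) and in vessel (106.7, 104.7 and 22.4 CPM). Potri.005G178000 had counts in 1 fiber library, at 7.09 CPM, and in 1 vessel library, at 1.23 CPM. In the mix it was present in all 3 libraries at 4.26, 3.44 and 5.65 CPM. For loci like these the capture data give no stable direction between fiber and vessel.

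Called loci were found in each class of lean between xylem and phloem. Of the 5 loci leaning toward xylem 2 were called higher in fiber and 1 higher in vessel, with log2 folds from -4.11 to 4.51. Of the 15 even loci 1 was called higher in fiber and 2 higher in vessel. Of the 2 loci leaning toward phloem 1 was called higher in vessel, and both had their highest capture mean there. Among all tested loci 2.86% were called higher in fiber and 3.19% higher in vessel, and shares by lean were not counted over all loci. With so few loci no difference between these classes was tested.

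The mix was compared with fiber and with vessel to see where shared loci stood once ray cells were included. Against fiber no member was called by edgeR, where 0.346% of all tested loci were called (0.0657% higher and 0.28% lower). In this test 9 members (40.9%) had an unadjusted p below 0.05, against 10.8% of tested loci. The share was 35.8% among tested loci of xylem alone and 11.9% among those of phloem alone. In fiber against vessel it was 59.1% of members and 23.9% of tested loci. It was 61.0% there for xylem alone and 29.9% for phloem alone. Loci of the same library are not independent, so no test was made of these shares. DESeq2 called 2 members higher and 3 lower in fiber, where it called 4.44% of all loci. Of the 22 loci 16 had a negative fold, with a median log2 fold of -0.86. The median was -1.66 without fiber replicate 1 and -0.47 without fiber replicate 3. Over all 22828 tested loci, 12659 folds were negative and the median was -0.14. Every fiber library lay above every mix library for 4 loci and below for 8, against 7.19% and 23.1% of tested loci. The largest fold without zero counts was that of Potri.001G245400, at -3.01 ± 0.75 (SE) with an edgeR adjusted p of 0.15. Toward fiber it was that of Potri.009G087200, at 2.69 ± 0.56 with an edgeR adjusted p of 0.087.

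Against vessel no member was called by edgeR either, where 0.0131% of all tested loci were called. In this test 8 members (36.4%) had an unadjusted p below 0.05, against 12.8% of tested loci. The share was 32.8% among tested loci of xylem alone and 20.9% among those of phloem alone. For the same reason these shares were not tested. DESeq2 called 3 members higher and 1 lower in vessel, where it called 6.35% of all loci. The median log2 fold of vessel against mix was 0.61, with 14 of 22 folds positive, but 0.13 without vessel replicate 2. Over all 22828 tested loci, 10592 folds were positive and the median was -0.11. Each vessel library lay above each mix library for 6 loci and below for another 6, where 6.69% and 21.7% of tested loci did so. Potri.014G158900 had a log2 fold of 3.65 ± 1.16 (SE) and Potri.002G260000 one of 3.38 ± 1.06, with edgeR adjusted p-values of 0.21 and 0.20, and their vessel libraries lay above all mix libraries. Potri.019G074400 was at -1.67 ± 0.31 with an edgeR adjusted p of 0.11, and its vessel libraries lay below all mix libraries.

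**Figure D4:**
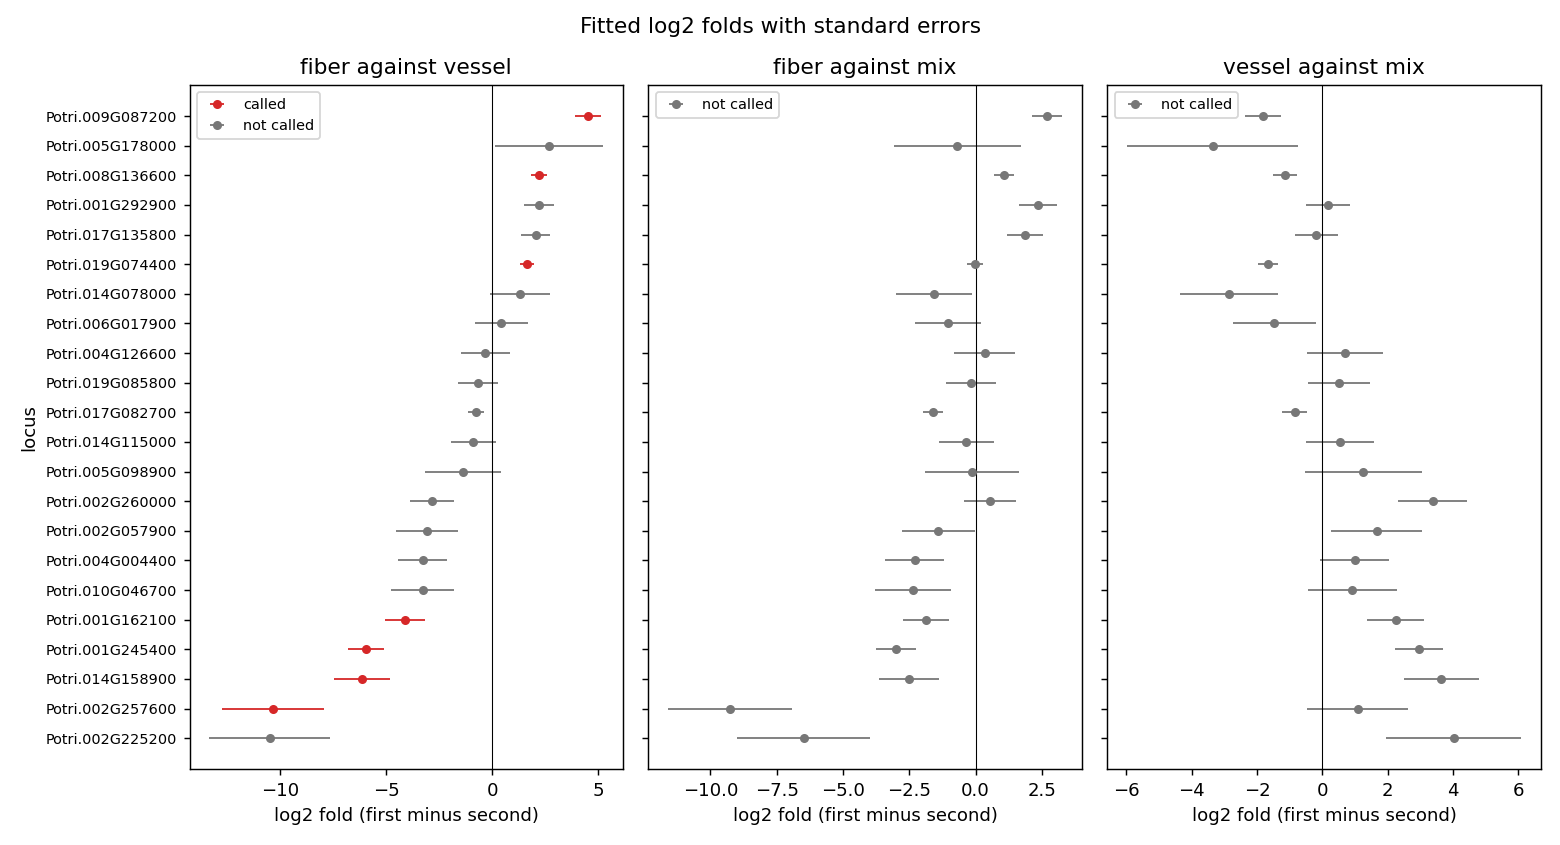
Fitted log2 folds (horizontal) with standard errors for the 22 loci (vertical, in 1 order throughout) in the comparisons of fiber with vessel, fiber with mix and vessel with mix; red points were called. For Potri.002G225200 and Potri.002G257600, which had no count in fiber, the fitted folds against fiber depend on a prior count, and the bounds in the text apply. The 7 called loci all belong to the comparison of fiber with vessel.

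The mix mean lay between those of fiber and vessel for 14 loci, above both for 5 and below both for 3. This split was not made over all loci. The 5 loci highest in the mix were Potri.019G074400, Potri.017G082700, Potri.014G078000, Potri.006G017900 and Potri.005G178000. For Potri.017G082700 the mix libraries, at 154.4, 219.3 and 167.2 CPM, lay above all vessel (69.1 to 141.3 CPM) and all fiber libraries (50.6 to 56.4 CPM), with folds that were not called. No member was below 1 CPM in both fiber and vessel while present in the mix.

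Levels in the mix stood apart from those in xylem tissue in both directions, and amplification of the captured RNA cannot be told apart from the cells taken. For 14 loci the xylem tissue mean was at least 2 times the mix mean, up to 23.2 times for Potri.002G225200 and 15.04 times for Potri.002G260000. For 5 loci the mix mean was at least 2 times the xylem mean, up to 9.01 times for Potri.019G074400 and 5.42 times for Potri.014G078000. The rule required a high xylem mean, which favours xylem above the mix. This split was not made over all loci, so nothing is read from it. Summed over the 22 loci, xylem tissue held 2522 ± 476.3 CPM (SD, n = 3), phloem 2256 ± 941.0, fiber 4759 ± 1962, vessel 1387 ± 268.1 and the mix 2110 ± 460.3 CPM. The fiber sum is led by Potri.009G087200 and is not a measure of the members as a group.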

How the data were processed

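Whole-number raw counts per locus, without normalization, were deposited by the authors in 1 table. TopHat was used on the reads, per the submitters' processing notes. Not given in the sources used here are the counting tool, genome build, annotation and strand setting. Each of the 24 columns matched 1 sample title, and 0 columns were left without a sample. The reference table (assembly P.trichocarpa_v4.1) matched 0 of 41335 identifiers, so no sequences, lengths or names were used.

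CPM was computed on column totals in Python 3.11.15, and figures were drawn with matplotlib 3.10.9. The 9 captures were fitted together in R 4.3.3 with edgeR 4.0.16 (filterByExpr, TMM, quasi-likelihood test, two-sided, group as the only term; 22828 loci, biological coefficient of variation 111.3%), with Benjamini-Hochberg adjustment over all tested loci. Standard errors are the absolute log2 fold over the square root of F. DESeq2 1.42.0 was an alternative. Replicates differed by more than sampling noise (the chi-square per degree of freedom lay between 5.5 and 225), so all were kept. The members were chosen with earlier results of these data known. The rule for named loci took extremes of the tissue values and the 2 largest called folds each way among loci with at least 20 CPM. The other identifiers were added after their values were seen, to account for every member.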

Additional observations from a re-analysis of the deposited data

How the results depend on the processing

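The number of members was 22 with the rule as given, 49 at a fold of 4 and 10 at a fold of 8. With a floor of 5 CPM it was 32, and with a floor of 20 CPM it was 19. It ranged from 18 to 39 when 1 replicate number, or phloem or shoot tip replicate 3 alone (chosen after seeing the data), was left out. Over all drops of 1 tissue library it ranged from 16, without shoot tip replicate 1, to 28. The 39 came without replicate 3, and the cause was not tested. With TMM-scaled CPM it was 24, of which 21 were members. In fiber against vessel, 3 members were higher and 4 lower. A fit of all 24 libraries gave 5 and 9, DESeq2 gave 5 and 8, and the replicate block gave 2 lower, without Potri.002G257600 and Potri.014G158900. Over all loci these settings called 29.4%, 18.7% and 4.07%, against 6.05% in the fit of the 9 captures. Leaving out 1 library gave 3 or 4 higher and 1 to 4 lower. There was 1 lower without fiber replicate 1 (2.45% of all loci called). There were 2 lower without fiber replicate 2 (3.0%) or mix replicate 1 (3.12%). There were 4 higher without vessel replicate 1 (8.48%). Calls over all loci thus fell or rose as well. Against the mix, where no member was called, the numbers higher and lower in fiber were 4 and 4 with all 24 libraries (12.8% of all loci called) and 2 and 3 by DESeq2 (4.44%), against 0.346%. Without a filter (0.414%), and with the replicate block (0.25%), 1 was higher in fiber. Leaving out 1 library gave 0 or 1 higher and 0 lower (1 without mix replicate 2, where 0.15% of all loci were called). In vessel against mix, all 24 libraries gave 5 higher and 3 lower (19.3% of all loci called), DESeq2 gave 3 and 1 (6.35%), no filter gave 1 lower (0.174%), against 0.0131%, and leaving out 1 library gave 0 higher and 0 or 1 lower (1 without vessel replicate 1, where 1.1% of all loci were called).

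Leaving out 1 library, the members' median log2 fold ranged from -1.75 to -0.67 in fiber against vessel, from -1.66 to -0.47 in fiber against mix and from 0.13 to 0.89 in vessel against mix. With the replicate block it was -0.99, -1.26 and 0.13.

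The calls of Potri.009G087200, Potri.008G136600, Potri.019G074400 and Potri.001G245400 held in all 14 refits. No fold of the 7 called loci changed sign in these refits. Captures with the same replicate number showed hardly any correlation of deviations (from -0.006 to 0.0716). The labels do not tie libraries to trees, so whether the captures are paired is not known. Size factors in place of TMM shifted the median of all loci by 0.15 in vessel against mix on the log2 scale. By DESeq2 1 member had no adjusted p in each comparison. Detection counts stayed within 1.5 times under other thresholds.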
